A study of Mus musculus with 8 samples.

Results

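The genes described here are Stra8 and 7 others that make, bind, break down or read retinoic acid in the testis: Rdh10, Aldh1a1, Aldh1a2, Crabp1, Cyp26b1, Rara and Rarg. The 8 genes were chosen with earlier results of these data known. Members were then all probe sets of a testis expression array with any of these 8 names as deposited gene symbol, whatever their measured values. This gave 9 probe sets of 45101, 2 for Rarg and 1 for each other gene. The arrays were Affymetrix Mouse430_2, each hybridised with RNA of whole testis from mice at postnatal day 23. By their labels, 5 were wildtype (replicates 1, 2, 4, 6 and 7) and 3 were mutant (replicates 3, 5 and 8). The mutant group carried the Ctcfl del allele on both chromosomes, which lacks most of the gene for CTCFL, the testis-specific paralog of CTCF. The study's text describes the control group as Ctcfl del/+ and from the same litters, although the labels call it wildtype, so those controls would carry a deleted copy too. All mice were kept on a C57/Bl6 background, the del allele was made by gene targeting in ES cells followed by Cre recombination, and no agent was given to either group. The targeted gene, Ctcfl, was not analysed here, and the labels have no check from it.

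Retinoic acid is made from vitamin A by oxidation of retinol to retinaldehyde and of retinaldehyde to the acid. It enters the nucleus, where retinoic acid receptors paired with retinoid X receptors switch target genes on. In the testis, pulses of retinoic acid along the seminiferous tubule drive the differentiation of spermatogonia and the start of meiosis, and Stra8 is the best known germ cell gene that it induces. The STRA8 protein is needed for the meiotic programme and is made in spermatogonia about to enter meiosis and in preleptotene spermatocytes. The comparison therefore asks whether transcripts of this pathway differ in testis that lacks CTCFL.

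Promoter windows of 3 members are shown because the receptors and CTCF-type proteins act through such sequences. These are Stra8, and Rara and Aldh1a1, which stood out by the values given below. Windows cover 250 bases before and 50 after a RefSeq transcript start (GRCm38.p6), and 7 of the 8 members had at least 1, Rdh10 being without. All 3 lie on the plus strand, and capitals mark the core of the retinoid half-site, GGTCA or its reverse complement TGACC.
Stra8, chr6:34920698-34920997: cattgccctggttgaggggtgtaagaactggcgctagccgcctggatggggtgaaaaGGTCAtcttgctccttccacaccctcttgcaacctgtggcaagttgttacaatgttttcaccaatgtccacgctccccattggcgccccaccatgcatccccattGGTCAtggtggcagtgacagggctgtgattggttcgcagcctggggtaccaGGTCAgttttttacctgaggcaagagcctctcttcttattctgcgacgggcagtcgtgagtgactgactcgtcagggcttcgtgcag
Rara, chr11:98939461-98939760: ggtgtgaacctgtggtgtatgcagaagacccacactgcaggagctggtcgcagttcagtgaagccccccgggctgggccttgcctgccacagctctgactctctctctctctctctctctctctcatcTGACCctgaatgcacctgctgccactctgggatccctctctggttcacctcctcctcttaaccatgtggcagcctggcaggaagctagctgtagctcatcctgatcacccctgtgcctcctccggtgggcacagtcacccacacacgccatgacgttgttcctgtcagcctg
Aldh1a1, chr19:20601718-20602017: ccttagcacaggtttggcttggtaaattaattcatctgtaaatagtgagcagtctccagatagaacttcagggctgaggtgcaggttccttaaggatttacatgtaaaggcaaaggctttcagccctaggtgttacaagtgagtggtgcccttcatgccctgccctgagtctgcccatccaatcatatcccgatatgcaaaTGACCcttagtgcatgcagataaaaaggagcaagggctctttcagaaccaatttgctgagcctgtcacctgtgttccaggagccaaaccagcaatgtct
The Stra8 window held 3 half-site cores, all in the same orientation, whose first bases lay 193, 88 and 37 bases before the start. The core occurred on either strand in 40.5% of 32851 promoter windows of this length, and 3 or more copies occurred in 2.35%. The Stra8 window also held 4 copies of the CCAAT box, ATTGG on either strand, of which the copy 91 bases before the start overlaps the middle half-site core. At least 3 such boxes were found in 3.37% of windows. For Rara and Aldh1a1 a window with a half-site core was picked for display. The one shown for Rara, 1 of 4 for this gene, held 1 core 122 bases before the start, another held 1 and the remaining ones held 0. The one shown for Aldh1a1, 1 of 2, held 1 core 49 bases before the start, and the other held 0. Among members not shown, the Aldh1a2 window held 1 core, the Rarg windows 1 and 0, and those of Cyp26b1 and Crabp1 0. Direct repeats of the core, GGTCANNNGGTCA or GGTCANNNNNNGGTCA on either strand, were not found in any of the 12 windows of the members, and across all windows they were found in 0.067% and 0.10%. The letters CCNNNAGNNGGC, a core of the CTCF motif, were likewise not in these 12 windows and were in 8.61% of all windows. Such matches are letters in a window and not measured binding sites. The study itself reported binding of both CTCFL and CTCF at the Stra8 promoter in ES cells. A window without these letters therefore does not mean that the gene lacks such a site.

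All 9 member probe sets had mean levels above the array medians, which lay between 6.40 and 6.45 (log2, RMA). Levels of different probe sets are not on a common scale, so each is compared only with itself across arrays. Before genotype was considered, 2 arrays stood apart: wildtype replicate 7 and mutant replicate 8 scored 40.2 and 38.2 on the first principal component (44.9% of the variance), and the other 6 lay between -24.8 and -3.10. On these 2 arrays the mean of 8 spermatid genes, all 8 above the array median, was 11.44 and 10.94 against 8.56 to 9.37 elsewhere. The mean of 7 fat cell genes was 8.21 on both against 5.94 to 6.83, and the 3′ to 5′ difference of the Gapdh control probe sets was 0.31 and 0.33 against at most 0.22. The same difference of the b-Actin controls was 1.13 and 1.03 against at most 1.03, so only wildtype replicate 7 lay outside the other 6 arrays by that control. Each genotype holds 1 of the 2 arrays, and member values are given with and without them. In whole testis RNA, fewer cells of a type and less RNA per cell cannot be told apart.

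Between genotypes, none of the 8 genes rose or fell by the test applied to the whole array. With limma, 0 of 9 member probe sets passed an adjusted p of 0.05, as did 0% of all probe sets, and 0 of 9 passed an unadjusted p of 0.05, against 3.47% of all probe sets. The levels of 7 were higher and of 2 lower in mutant than in wildtype testis, with a median difference of 0.08 (log2) against a median of 0.0032 over all probe sets. Over all 8 arrays no 95% confidence interval of a member difference reached beyond 0.35 on the log2 scale, a change of 1.27-fold, and over the 6 arrays without the pair that stood apart the widest reached 0.44 (Aldh1a1). Only Rara had groups that did not overlap, 1 of 9 probe sets against 2.7% of all probe sets. The plots of member levels and of their differences show every array and every interval.

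**Figure D1:**
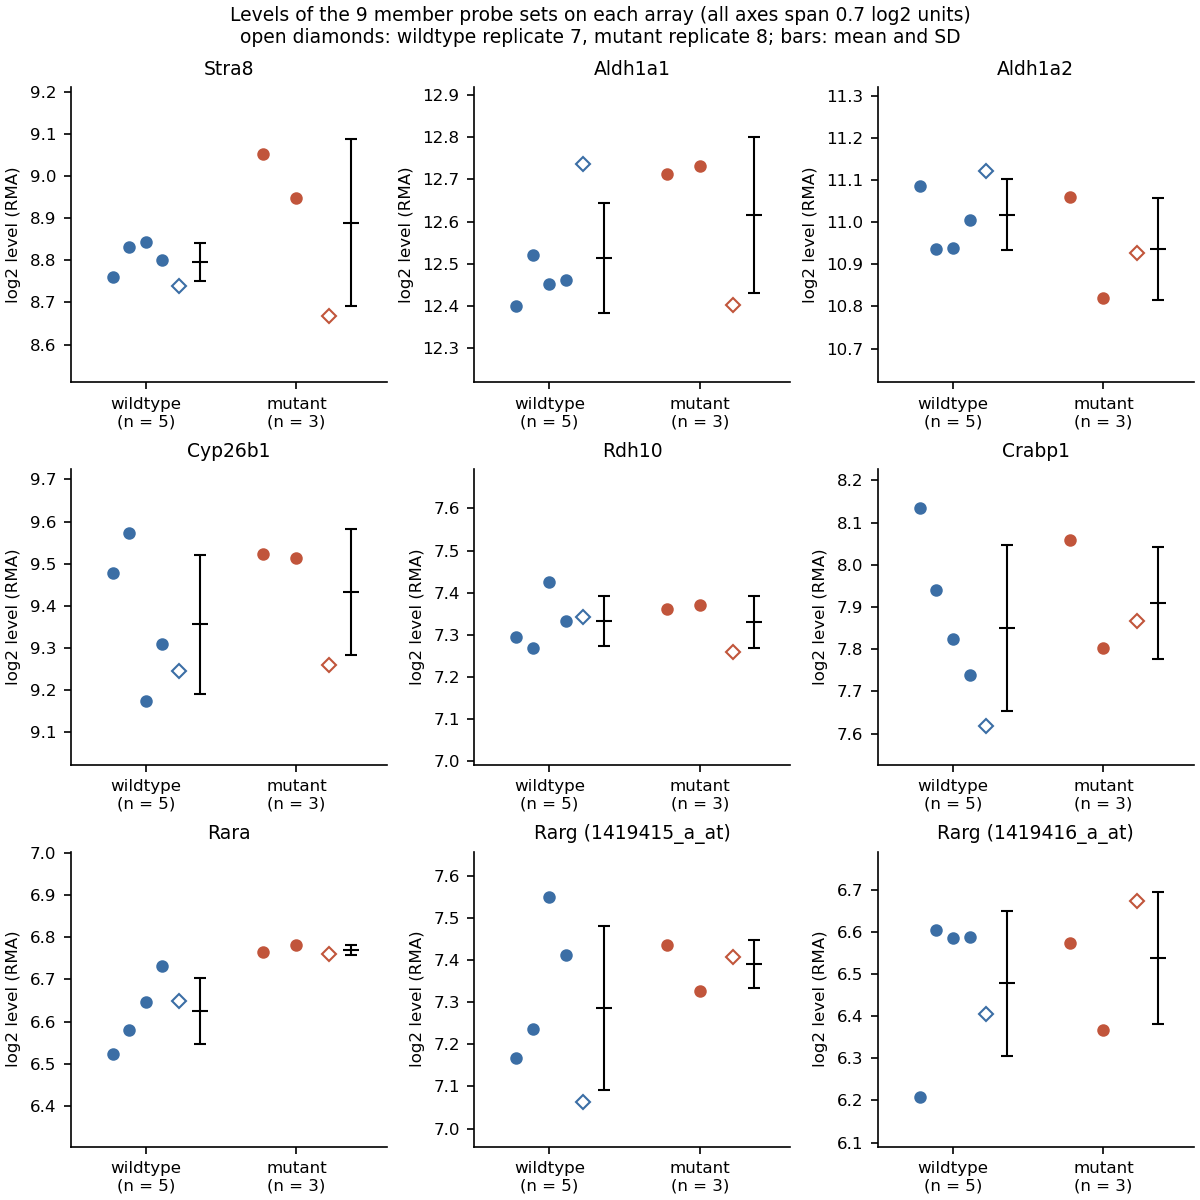
Log2 level (RMA, vertical axes, each spanning the same number of log2 units) of the 9 member probe sets on each of the 5 wildtype and 3 mutant arrays, with group mean and SD as bars and wildtype replicate 7 and mutant replicate 8 as open diamonds. The groups overlap for every probe set but that of Rara, and for Stra8 the open diamond is the lowest array of each group.

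**Figure D2:**
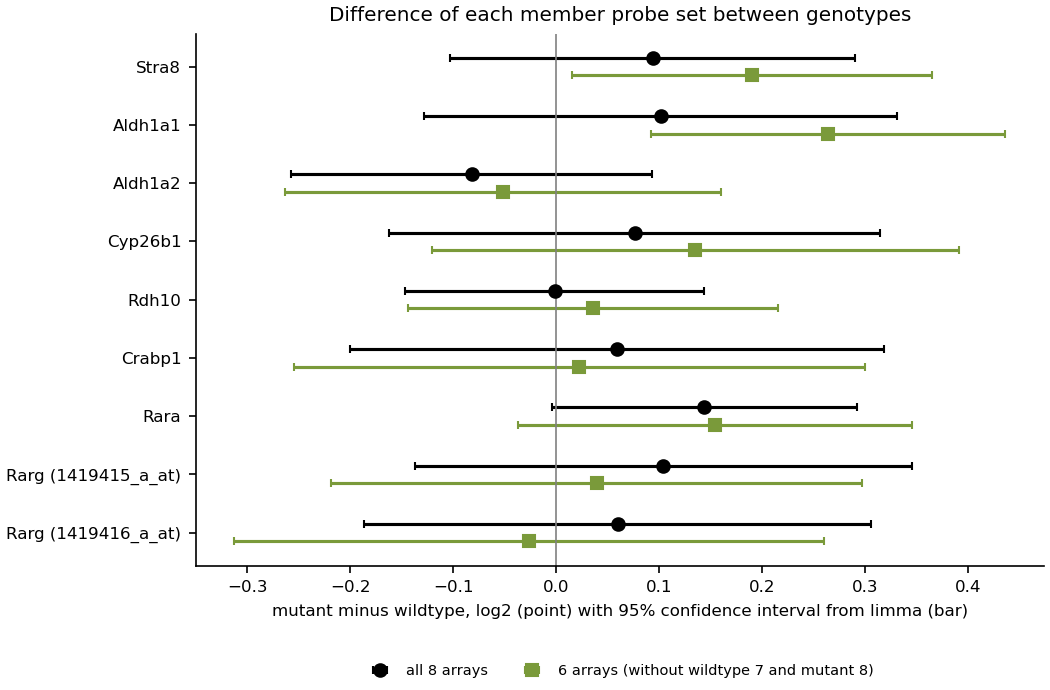
Mutant minus wildtype difference (log2, horizontal axis) of the 9 member probe sets with its 95% confidence interval from limma, over all 8 arrays (circles) and over the 6 arrays without wildtype replicate 7 and mutant replicate 8 (squares). With all arrays every interval includes 0, and with 6 arrays those of Stra8 and Aldh1a1 lie above it.

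Stra8, the retinoic acid-induced gene of premeiotic germ cells, was measured by probe set 1420568_at. Its log2 level was 8.76, 8.83, 8.84, 8.80 and 8.74 on wildtype replicates 1, 2, 4, 6 and 7, and 9.05, 8.95 and 8.67 on mutant replicates 3, 5 and 8. The 5 wildtype arrays thus lay close together, while mutant replicates 3 and 5 were above all of them and mutant replicate 8 below all of them. The mean was 8.80 ± 0.04 (SD, n = 5) among wildtype and 8.89 ± 0.20 (SD, n = 3) among mutant arrays. The difference of 0.094 (SE 0.088, 95% interval -0.10 to 0.29, limma unadjusted p = 0.31, adjusted p = 1.0) was within the spread between arrays, and an exact two-sided permutation test gave p = 0.32. The smallest p this permutation can give is 0.0357.

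Both arrays that stood apart carried the lowest Stra8 levels of the 8. Within that pair the mutant array was lower than the wildtype array by a log2 difference of -0.07, with 1 array on each side, and over the other 6 arrays the mutant mean was higher by 0.19 (SE 0.077, limma unadjusted p = 0.036, adjusted p = 0.76). Mutant replicate 8 alone moved the value most: without it the difference was 0.20 (limma unadjusted p = 0.021, adjusted p = 0.83), and without mutant replicate 3 it was 0.012. With the pair as a block, the difference was 0.12 (SE 0.074, limma adjusted p = 0.90). The direction stayed positive in these fits, and none passed the adjusted threshold. On the 2 arrays the spermatid, fat cell and Gapdh values were the highest of the 8, where Stra8 was lowest. The b-Actin value lay above the other 6 arrays on wildtype replicate 7 only, and the part of these values was not tested.

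Rdh10, which oxidises retinol to retinaldehyde, differed least between genotypes. Probe set 1426968_a_at read 7.30, 7.27, 7.42, 7.33 and 7.34 in wildtype and 7.36, 7.37 and 7.26 in mutant testis, in the order of replicates used for Stra8. The groups overlapped over nearly their whole range, and the means were 7.33 ± 0.06 (SD, n = 5) and 7.33 ± 0.06 (SD, n = 3). The difference was -0.0016 (SE 0.065), with a 95% interval of -0.15 to 0.14, and it was 0.04 without the 2 arrays that stood apart.

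Aldh1a1 and Aldh1a2 encode the retinaldehyde dehydrogenases that make retinoic acid itself, the former best known in Sertoli and interstitial cells and the latter in germ cells. Aldh1a1 (1416468_at) read 12.40, 12.52, 12.45, 12.46 and 12.74 in wildtype and 12.71, 12.73 and 12.40 in mutant testis. Wildtype replicate 7 was the highest of its group and level with the upper mutant arrays, while mutant replicate 8 was as low as the lowest wildtype array. Over all arrays the difference was 0.10 (SE 0.10, limma unadjusted p = 0.35). Without the 2 arrays that stood apart it was 0.26 (SE 0.076, limma unadjusted p = 0.0069, adjusted p = 0.75), and both remaining mutant arrays then lay above the 4 wildtype arrays. Within the pair the sign was opposite, mutant replicate 8 minus wildtype replicate 7 being -0.34.

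Aldh1a2 (1422789_at) read 11.09, 10.94, 10.94, 11.01 and 11.12 in wildtype and 11.06, 10.82 and 10.93 in mutant testis. Mutant replicates 5 and 8 lay below the wildtype arrays and mutant replicate 3 among the higher ones. The difference of -0.08 (SE 0.078) was the largest downward difference among the members over all arrays and was not distinguishable from the spread between arrays. It was -0.05 without the 2 arrays that stood apart, -0.14 without mutant replicate 3 and -0.02 without mutant replicate 5.

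Of the genes that limit free retinoic acid, Crabp1 encodes a cytoplasmic binding protein found in spermatogonia, and Cyp26b1 the hydroxylase that degrades retinoic acid, known from the cells around the tubules. Crabp1 (1448326_a_at) read 8.13, 7.94, 7.82, 7.74 and 7.62 in wildtype and 8.06, 7.80 and 7.87 in mutant testis. All 3 mutant arrays fell inside the wildtype range, the widest range of any member at 0.52, and the difference was 0.06 (SE 0.12), or 0.02 without the 2 arrays that stood apart. Cyp26b1 (1460011_at) read 9.48, 9.57, 9.17, 9.31 and 9.25 in wildtype and 9.52, 9.51 and 9.26 in mutant testis. Here too the mutant arrays were inside the wildtype range, and the difference was 0.08 (SE 0.11). It was 0.13 without the 2 arrays that stood apart, 0.03 without mutant replicate 3 and 0.16 without mutant replicate 8.

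The receptors were represented by Rara and Rarg, for retinoic acid receptors alpha and gamma, of which the first acts chiefly in Sertoli cells and the second in spermatogonia. Rara (1450180_a_at) read 6.52, 6.58, 6.65, 6.73 and 6.65 in wildtype and 6.77, 6.78 and 6.76 in mutant testis. Every mutant array was above every wildtype array, and a complete separation in this direction was seen for 1.38% of all probe sets. The mean was 6.63 ± 0.08 (SD, n = 5) among wildtype and 6.77 ± 0.01 (SD, n = 3) among mutant arrays, a difference of 0.14 (SE 0.066, 95% interval -0.0042 to 0.29, 1.10-fold). Its limma unadjusted p was 0.056, its adjusted p 1.0 and its rank 1765 among all probe sets, and the exact permutation test gave the smallest p possible, 0.0357. Without the 2 arrays that stood apart the difference was of similar size, 0.15 (SE 0.085, limma unadjusted p = 0.10).

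Rarg was read by probe sets 1419415_a_at and 1419416_a_at, which disagreed on single arrays. The first gave 7.17, 7.24, 7.55, 7.41 and 7.06 in wildtype and 7.44, 7.33 and 7.41 in mutant testis. The second gave 6.21, 6.60, 6.59, 6.59 and 6.40 in wildtype and 6.57, 6.37 and 6.67 in mutant testis. In the first, all 3 mutant arrays lay inside the wildtype range, and in the second mutant replicate 8 lay above it and the other two inside. The differences were 0.10 (SE 0.11) and 0.06 (SE 0.11), and without the 2 arrays that stood apart they were 0.04 and -0.03.

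The wider pathway was described with 75 further genes in 5 lists, of which 69 were measured by 134 probe sets. Of these, 7 probe sets (5.22%) passed an unadjusted p of 0.05, 3 higher and 4 lower in mutant testis, against 3.47% of all probe sets, and 0 passed an adjusted p of 0.05. The groups did not overlap for 7 of the 134, against 2.7% of all probe sets. The median difference was 0.01 (log2). The list counts that follow are small and are to be read against the same 2 shares. The genes named next passed only the unadjusted threshold unless stated, all with a limma adjusted p of 1.0. The plot of list differences places these probe sets against the whole array.

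**Figure D3:**
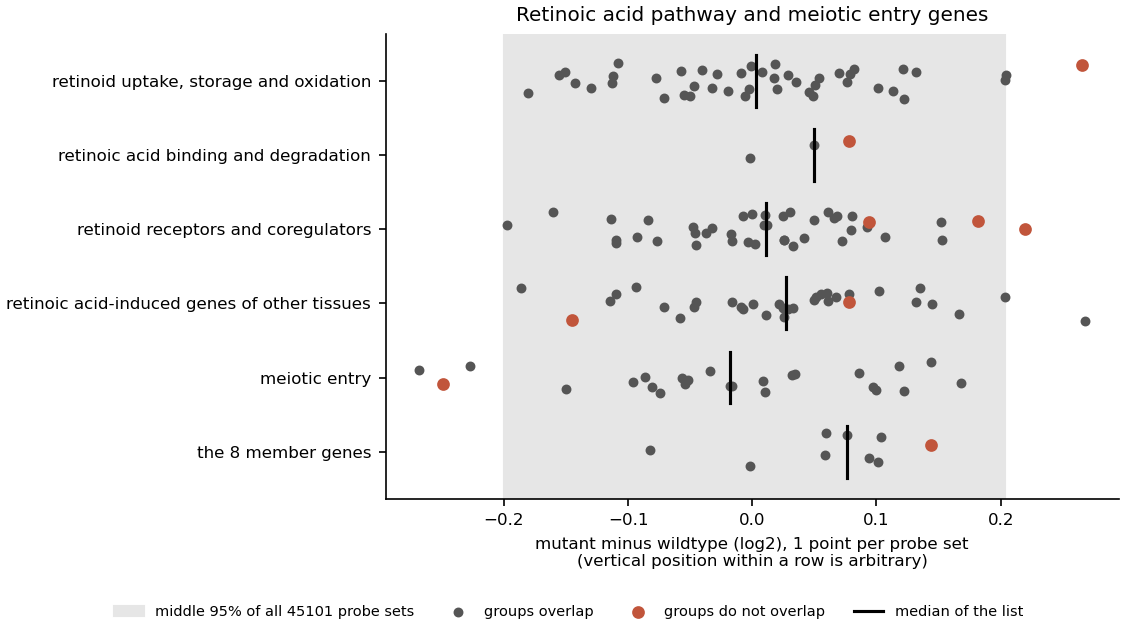
Mutant minus wildtype difference (log2, horizontal axis) of each probe set in the 5 pathway lists and of the 9 member probe sets, with list medians as vertical lines, probe sets without overlap between the groups in red, and the middle 95% of all probe sets (-0.20 to 0.20) in grey. Most points lie in the grey band and all list medians are near 0.

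The list of retinoid uptake, storage and oxidation held 44 probe sets of 27 measured genes, 22 higher and 22 lower, with a median of 0.0033. Only Aldh1a3, another retinaldehyde dehydrogenase, passed, through probe set 1448789_at. It read 5.82, 5.76, 5.71, 5.65 and 5.68 in wildtype and 5.97, 6.04 and 5.96 in mutant testis, without overlap. The difference was 0.27 (SE 0.065, limma unadjusted p = 0.0022) and 0.27 also without the 2 arrays that stood apart. These levels lay below the array medians, and the other probe sets of Aldh1a3 gave 0.05 and -0.11 with overlapping groups. In the list of retinoic acid binding and degradation, 0 of 3 probe sets passed, and the smallest p was that of Crabp2, a binding protein that carries retinoic acid to its receptors. Its groups did not overlap, with 4.72 ± 0.07 (SD, n = 5) and 4.80 ± 0.01 (SD, n = 3), but the difference was 0.08 (SE 0.063). The levels of Crabp2 lay below the array medians as well.

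Among retinoid receptors and coregulators, 3 of 42 probe sets passed, 2 higher and 1 lower, with a list median of 0.01. Rxra, a partner of the retinoic acid receptors, had 2 of them, singled out after their values were seen, since neither is its main probe set, and they differed in opposite directions. These were 0.18 (SE 0.078) for 1454773_at and -0.20 (SE 0.074) for 1430497_at, while its main probe set gave -0.05. The levels of 1430497_at, with a mean of 4.24 over all arrays, lay below the array medians.

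Of 34 probe sets of genes that retinoic acid induces in other tissues, 1 passed. This was the main probe set of Meis2, a homeobox gene, with 4.55 ± 0.05 (SD, n = 5) on wildtype arrays and 4.41 ± 0.07 (SD, n = 3) on mutant arrays. The difference was -0.15 (SE 0.063, limma unadjusted p = 0.045), and the other 3 Meis2 probe sets gave 0.17, 0.14 and 0.10. Rarb, a receptor gene that is itself a classical retinoic acid target, read 4.12 to 4.33 in wildtype and 4.07 to 4.18 in mutant testis, with a difference of -0.11 (SE 0.069) that did not pass. Levels of Rarb and of every Meis2 probe set lay below the array medians.

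Meiotic entry was covered by 25 probe sets of 17 genes, all 17 above the array medians. Of the 25 probe sets, 11 were higher and 14 lower in mutant testis, with a median difference of -0.02. The 2 that passed were both lower in mutant testis. Sycp1, a protein of the synaptonemal complex, read 11.28, 11.49, 11.36, 11.35 and 11.51 in wildtype and 11.12, 11.27 and 11.06 in mutant testis. Its groups did not overlap, and the difference was -0.25 (SE 0.080, limma unadjusted p = 0.011). Meioc, needed to hold germ cells in meiotic prophase, read 10.37, 10.31, 10.39, 10.19 and 10.44 in wildtype and 10.24, 10.03 and 9.94 in mutant testis, with a difference of -0.27 (SE 0.088, limma unadjusted p = 0.013). Without the 2 arrays that stood apart these were -0.18 (limma unadjusted p = 0.077) and -0.18 (limma unadjusted p = 0.098).

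Cell type markers were compared because the 8 members are made in different cells of the testis. The defining markers of the labelled tissue, testis, were present, with 7 of 8 spermatogonia genes, 8 of 9 spermatocyte genes and 9 of 9 Sertoli cell genes above the array median. By the same measure 5 of 5 macrophage and 6 of 7 fat cell genes were above it too, so this does not set testis apart from other tissues. The spermatogonia list had means of 7.54 to 7.75 in wildtype and 7.67 to 7.90 in mutant testis. It includes markers of undifferentiated cells and does not single out the later cells that make Stra8. Mutant replicates 3 and 5 had the highest means, 7.90 and 7.89, and are the arrays with the highest Stra8 levels. Of 15 spermatogonia probe sets 2 passed an unadjusted p of 0.05, both higher in mutant testis, while 11 had higher and 4 lower means there and differences ran from -0.33 to 0.37. Within this list Zbtb16 differed by -0.06 and Gfra1, the GDNF receptor of undifferentiated spermatogonia, by 0.35 (SE 0.10, limma unadjusted p = 0.0061, adjusted p = 1.0).

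Sertoli cell means were 8.44 to 8.54 in wildtype and 8.48 to 8.69 in mutant testis, with 1 of 13 probe sets past the unadjusted threshold, a higher one. Here 12 of the 13 had higher means in mutant testis, with a median difference of 0.09, or 0.15 without the 2 arrays that stood apart. Leydig cell means were 8.50 to 8.78 and 8.55 to 9.08, with 2 of 12 probe sets past it, both higher. Higher means in mutant testis were seen for 11 of the 12, with a median difference of 0.15, or 0.31 without those arrays. Mutant replicate 3 was the highest array of both lists and of Stra8. Spermatocyte means were 10.65 to 10.81 in wildtype and 10.54 to 10.72 in mutant testis, with 1 of 11 probe sets past it, that of Sycp1. No probe set passed among 15 of spermatids, 9 of peritubular cells, 7 of macrophages, 6 of endothelium and 14 of fat cells, and 1 of 5 passed among epididymis markers, Lcn5, a secreted lipocalin. All 15 spermatid probe sets nevertheless had lower means in mutant testis, with a median difference of -0.22, or -0.38 without the 2 arrays that stood apart. All 7 macrophage probe sets had higher means, with a median of 0.01, or 0.13 without those arrays. The part of these cell types in the member values was not tested.

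**Figure D4:**
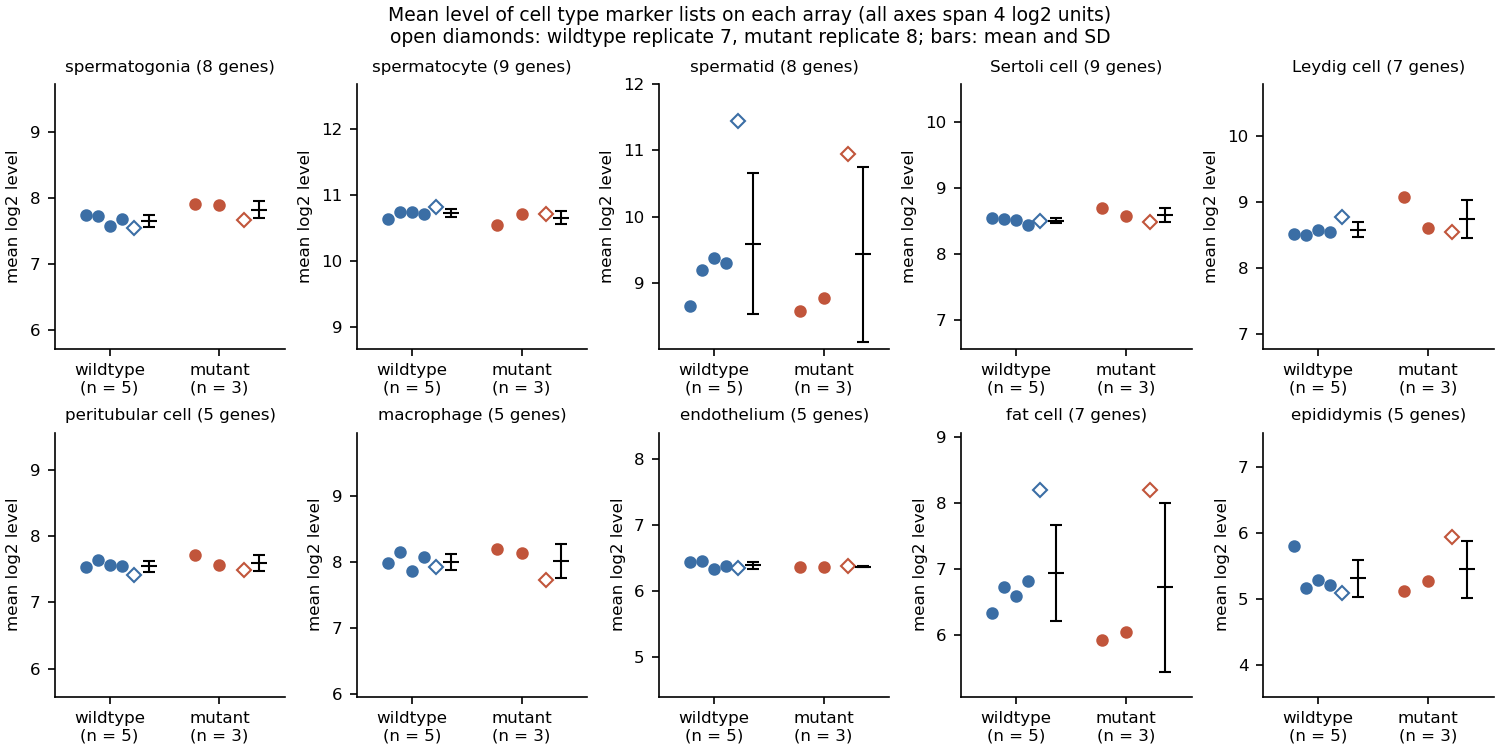
Mean log2 level (vertical axes, each spanning the same number of log2 units) of 10 cell type marker lists on each wildtype and mutant array, with group mean and SD as bars and wildtype replicate 7 and mutant replicate 8 as open diamonds. Spermatid and fat cell means are higher on the 2 open diamonds than on the other 6 arrays, and the remaining lists vary less.

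The profile of Stra8 over the 8 arrays was also set against 14612 probe sets of a single gene with a similar SD, as a description. Likeness was the mean absolute difference after each was centred on its own mean. The 5 closest were Prkcb, Mfap3, Septin9, Gna14 and Gstt1, with values from 0.024 to 0.031 (log2). Each was highest on mutant replicate 3 and lowest on mutant replicate 8, except that Gstt1 was lowest on wildtype replicate 7. Their mutant minus wildtype differences ranged from 0.05 to 0.10, next to 0.094 for Stra8. A similar order of arrays and a similar difference follow from choosing them by closeness on these same 8 arrays.

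**Figure D5:**
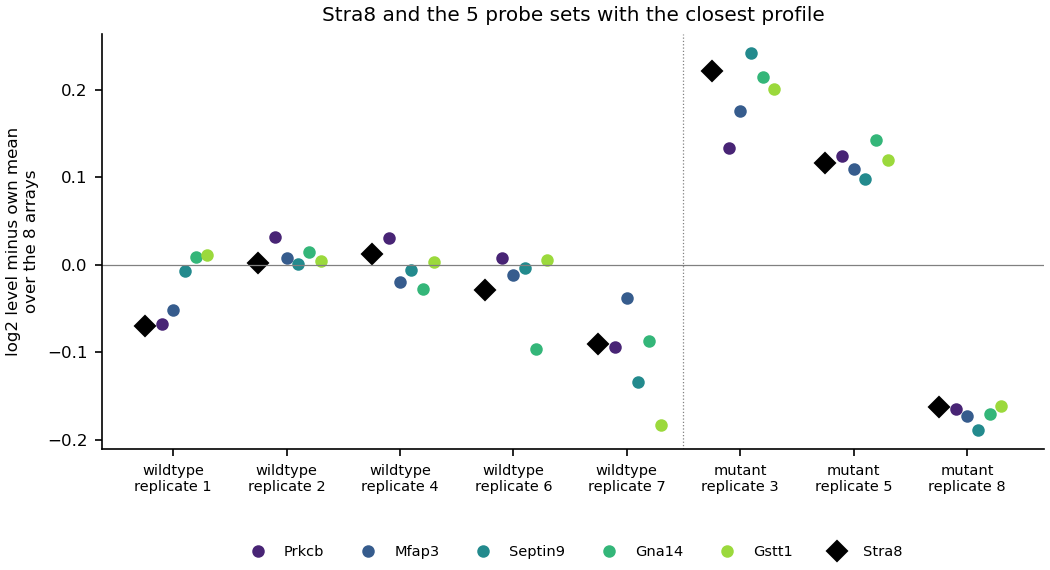
Log2 level minus the probe set's own mean over the 8 arrays (vertical axis) on each wildtype and mutant array (horizontal axis) for Stra8 (black diamonds) and the 5 probe sets with the closest profile (coloured points). All 6 are above their mean on mutant replicates 3 and 5 and below it on mutant replicate 8 and wildtype replicate 7.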

How the data were processed

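RNA of 8 testes was measured on Affymetrix Mouse430_2 arrays. The authors normalised by quantiles, corrected background by RMA and deposited log2 levels, 1 for each array and probe set. That table also held their group means, fold changes and p-values, and the other tables their limma output, and none of these was used. Sample titles gave the group and the replicate number. The labels do not say whether samples came from separate animals, so p-values measure the spread between these samples, which may be technical. Genes were named through the Entrez ID of a probe set with a single one, using a RefSeq table (GRCm38.p6) that matched 33571 of 36858 such probe sets (91.1%), and otherwise by the deposited symbol. Coordinates belong to that build, and the promoter sequences are from RefSeq.

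All 45101 probe sets, 64 of them controls, were fitted without a filter by limma 3.58.1 in R 4.3.3 (lmFit, eBayes, two-sided), and p-values were adjusted over all of them by Benjamini-Hochberg. The fit was tested on simulated data. For single values, arrays were also permuted exactly (two-sided). Counts and figures used Python 3.11.15 with pandas 2.3.3, numpy 2.4.6, scipy 1.17.1 and matplotlib 3.10.9. The number of arrays limits the precision.

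The members and lists were chosen with earlier results of these data known, as was the pair of arrays that stood apart, which rests on expression values and on no label. Named were all members, list genes whose main probe set passed an unadjusted p of 0.05 or else the one with the smallest p, the first markers of a list, and the 5 probe sets closest to Stra8 with an SD of 0.8 to 1.25 times its SD. Others were named after their values were seen, and some list genes are not reported here. A main probe set is one without a cross-hybridisation suffix, then the highest mean. Alternatives were leaving out each array, leaving out or blocking the pair, centring on the median, repeating quantile normalisation, an intensity trend with robust prior, array weights, a one-way comparison without shared variance and only probe sets above the median. The counts for lists under these were added after seeing the data.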

Additional observations from a re-analysis of the deposited data

Results flagged for a closer look

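Of 24 measures over the 5 wildtype arrays, 5 had an array far from the rest, where chance gives about 1 in 20 for independent measures. These measures share arrays and are not independent. Of the 5, all but the epididymis mean were flagged on wildtype replicate 7, already set apart by its expression values. No excess over chance can therefore be read from the count. The mean level of the retinoic acid binding and degradation list read 6.68 for wildtype replicate 7, and the nearest wildtype array had 6.75. On that array the spermatid mean was 11.44, against 9.37 on the nearest. Its Leydig cell mean was 8.78 against 8.57, and its fat cell mean 8.21 against 6.83. The epididymis mean read 5.79 for wildtype replicate 1, and the nearest array had 5.29. The 9 member probe sets were among the 24 measures and none of them was among these 5.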

How the results depend on the processing

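No paired analysis was possible, because replicate numbers form a single series over both genotypes and the labels do not name the litters. Over the alternatives 6 of the 8 genes kept the direction of their main probe set. Rdh10, near 0, turned positive without wildtype replicate 4 (0.021), wildtype replicate 7 (0.00051) or mutant replicate 8 (0.034), without both arrays that stood apart (0.036), with them as a block (0.0040) and with array weights (0.022), and ranged from -0.022 to 0.034 as single arrays were left out. Crabp1 became -0.016 without mutant replicate 3 and ranged up to 0.13 as single arrays were left out. Stra8 ranged from 0.012 to 0.204 as single arrays were left out. The count of member probe sets past an unadjusted p of 0.05 was 0, and 0 to 1 with single arrays left out (Rara without wildtype replicate 6, Stra8 without mutant replicate 8). It was 2 without both arrays that stood apart (Stra8 and Aldh1a1), and 1 (Rara) in the one-way comparison and 1 (Rara) over probe sets above the median. No member passed an adjusted threshold in any of these fits, whose adjusted p for Stra8 was 0.76 to 1.0. Over the whole array 0 probe sets passed it except 1 with the block.

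For the lists, counts past the unadjusted threshold as single arrays were left out were 1 to 2 for uptake, storage and oxidation, 2 to 3 for receptors and coregulators, 0 to 2 for induced genes of other tissues and 2 to 5 for meiotic entry, where 5 came without mutant replicate 8. Without both arrays that stood apart they were 4, 1 and 2 for the first 3 of these, and with the block 2 for uptake and 5 for receptors. The cause was not tested. With 5 against 3 arrays, exact permutation can reach p = 0.0357 at the least, and 3 mutant arrays limit every interval.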

Other observations

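A further probe set is described in the deposited annotation as Rdh10 but carries no symbol and was therefore no member. Its log2 level was 5.30 ± 0.14 (SD, n = 5) on wildtype arrays and 5.32 ± 0.04 (SD, n = 3) on mutant arrays, with overlapping groups and a difference of 0.013 (SE 0.086).

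Genes of retinoid supply and of meiosis that belong to the lists but were not chosen by the rule for named genes, and were picked after their values were seen, gave these values. Rbp4, the carrier of retinol in blood, differed by 0.20 (limma unadjusted p = 0.061, adjusted p = 1.0). Stra6, the cell surface receptor for that carrier, differed by 0.13 (limma unadjusted p = 0.085, adjusted p = 1.0). Rec8, a meiotic cohesin that depends on retinoic acid, differed by -0.08 over all arrays (limma unadjusted p = 0.48) and by -0.18 without the 2 arrays that stood apart (limma unadjusted p = 0.073, adjusted p = 0.78). Other genes of these lists went the opposite way. Dmc1, of the meiotic entry list, differed by 0.17 (1420335_at) and 0.14 (1449819_at). Without those arrays these were 0.27 and 0.31 (limma unadjusted p = 0.054 and 0.013, adjusted p = 0.77 and 0.75). Bco1, of the uptake list, differed by -0.11, and by -0.34 without those arrays (limma unadjusted p = 0.0015, adjusted p = 0.75).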
